A study of Mus musculus with 20 samples.

Results

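Skeletal muscle keeps a dedicated set of enzymes for making ATP quickly, and 10 genes that encode such enzymes were followed here in cultured mouse muscle cells. The genes were picked by symbol, with earlier results of these data known: Pygm, Hk2, Pfkm, Aldoa, Gapdh, Pgam2, Eno3, Pkm, Ldha and Ckm. The deposited count table lists 26722 genes, and 11 of its rows carry these 10 symbols, because Aldoa appears under 2 gene identifiers. All 11 rows were among the 14605 genes with enough counts to be tested.

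Glycolysis splits glucose into pyruvate in the cytosol and yields ATP without oxygen, and muscle feeds it both from blood glucose and from its own glycogen. Creatine kinase adds a faster reserve by moving a phosphate from phosphocreatine to ADP. For several of these steps the genome holds a form that prevails in differentiated muscle and a partner form that prevails in myoblasts or other tissues, and myogenic differentiation is known for a switch from the partner to the muscle form, as from Ckb to Ckm or from Eno1 to Eno3.

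The cells were C2C12, an established mouse myoblast line, left to differentiate over 5 days into multinucleated myotubes. Treatment lasted 16 h, and each of the 5 treatments had 4 replicates, numbered 1 to 4 in the titles. The control received 7.7 nM of b12 in the hIgG4 format, an antibody that served as negative control, and the second treatment was 7.7 nM of 13-3B5 hIgG4, an antibody that activates the muscle receptor kinase MuSK. The other treatments all contained 0.1 nM neural agrin, the natural activator of MuSK, with 7.7 nM of b12 hIgG4 (called agrin below), of 13-3B5xb12 or of 11-3F6xb12, the last ones being monovalent antibodies that inhibit MuSK. The model is a single cell line without nerve or vessel, and the series text calls the replicates biological without saying whether they came from separate cultures, so p-values measure the spread between these libraries, which may in part be technical.

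Total RNA was sequenced after removal of ribosomal RNA, and total counts were between 18424881 and 23343903 per library. Levels are given as CPM, counts brought to a common library total after scaling by TMM (trimmed mean of M-values) factors. Markers of myotubes were present in every library, with Ttn at a median of 4673 CPM and Myh3 at 1609 CPM. Of the markers of other cells, those of fibroblasts (summed, 3875 to 4959 CPM, most of it Col3a1) and dividing myoblasts (120.6 to 217.5 CPM) were also present, Plin1 of adipocytes was at 0 in all 20 libraries, and the liver markers stayed at or under 0.2545 CPM except in agrin replicate 3, where they summed to 10.84 CPM. Agrin + 13-3B5xb12 replicate 1 and control replicate 2 stood apart from the other libraries in an earlier analysis of these data. Counts of the enzyme genes that passed a test were also obtained without these libraries. No such counts are given for the partner forms or for other gene lists.

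Per kilobase of the longest coding transcript, Eno3, the muscle enolase, had the highest level of the 10 genes with 642 ± 90.2 CPM per kilobase (SD, n = 20). Aldoa, the main aldolase of muscle, followed with 543 ± 42.9 and Pkm, pyruvate kinase, with 535 ± 36.3 CPM per kilobase. Gapdh, glyceraldehyde-3-phosphate dehydrogenase, stood at 269 ± 28.8 and Ldha, the lactate dehydrogenase subunit that favours lactate formation, at 233 ± 11.1 CPM per kilobase. Ckm, the muscle creatine kinase, had 115 ± 31.3 and Pfkm, the muscle phosphofructokinase, 100.2 ± 23.6 CPM per kilobase. The lowest levels belonged to Pgam2, the muscle phosphoglycerate mutase (34.5 ± 9.19), Pygm, the muscle glycogen phosphorylase (21.9 ± 3.79), and Hk2, the insulin-responsive hexokinase (11.2 ± 2.20 CPM per kilobase). In this order Eno3 differed from Aldoa, and Aldoa from Pkm, by less than the sum of the SDs. So did Gapdh from Ldha, Ckm from Pfkm and Pgam2 from Pygm. The genes share libraries, and within every library Eno3 was above Aldoa and Pgam2 above Pygm. The order within the other pairs varied between libraries. The order depends on the length used: over all annotated exons Gapdh had 92.3 CPM per kilobase, below Ldha (128) and Ckm (108). The second Aldoa identifier (ENSMUSG00000114515, chr7:126800790-126809108) held 0 to 34 counts per library and lies just upstream of the first on the same strand, without overlap.

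The 250 bases before the RefSeq start site (GRCm38.p6, 5′ to 3′ on the gene's strand) are shown for Pgam2 and Pgam1, the muscle and partner form of 1 step, whose levels went in opposite directions in the replicate comparison given further on, and for Ckm and Pygm, which were lower in it. Capitals mark 3 sequences searched on both strands: CAGCTG and CACCTG, 2 forms of the E-box bound by myogenic factors such as MyoD, and the MEF2 site, an A/T-rich site bound by MEF2 factors.
Pgam2 (chr11:5803797-5804046, - strand): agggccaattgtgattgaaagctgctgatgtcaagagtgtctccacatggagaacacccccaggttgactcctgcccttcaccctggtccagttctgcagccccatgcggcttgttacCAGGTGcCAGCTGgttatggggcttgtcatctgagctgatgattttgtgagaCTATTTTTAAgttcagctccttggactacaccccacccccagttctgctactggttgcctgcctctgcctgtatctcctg
Pgam1 (chr19:41911621-41911870, + strand): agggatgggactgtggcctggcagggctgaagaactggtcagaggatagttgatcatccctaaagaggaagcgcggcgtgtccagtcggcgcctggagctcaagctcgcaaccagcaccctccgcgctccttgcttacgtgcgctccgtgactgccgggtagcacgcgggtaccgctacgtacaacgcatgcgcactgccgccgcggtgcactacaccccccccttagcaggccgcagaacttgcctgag
Ckm (chr7:19410844-19411093, + strand): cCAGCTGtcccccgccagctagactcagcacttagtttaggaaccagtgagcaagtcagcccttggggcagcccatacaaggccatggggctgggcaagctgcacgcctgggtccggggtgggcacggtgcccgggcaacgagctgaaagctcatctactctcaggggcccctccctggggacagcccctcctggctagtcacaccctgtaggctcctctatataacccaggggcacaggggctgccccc
Pygm (chr19:6384158-6384407, + strand): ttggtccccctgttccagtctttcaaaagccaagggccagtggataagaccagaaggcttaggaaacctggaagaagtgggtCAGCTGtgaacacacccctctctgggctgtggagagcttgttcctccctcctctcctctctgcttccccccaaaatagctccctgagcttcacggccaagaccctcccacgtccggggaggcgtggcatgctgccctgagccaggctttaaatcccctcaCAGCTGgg
Pgam2 held all 3, with CACCTG (as CAGGTG) beginning 132 bases, CAGCTG 125 bases and the MEF2 site 80 bases before the start, and the 2 E-boxes lie 1 base apart. Ckm held CAGCTG at 249 bases and Pygm held it at 168 and at 8 bases before the start, while the Pgam1 window held none of the 3. The windows shown do not stand for all enzymes lower in the replicate comparison. Of the lower enzymes not shown, Hk2, Aldoa and Eno3 held none of the 3 in any window, and Pfkm held CACCTG in some of its windows. The RefSeq start of Ckm lies inside the longer gene that GENCODE annotates.

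Promoter windows were found for all 10 symbols, 17 in all, since some genes have several starts. CAGCTG was in 4 of the 17 windows, CACCTG in 4 and the MEF2 site in 1, and 7 of the 17 held at least 1 of them. Among 32851 such windows in the genome, 13% held CAGCTG, 17.2% CACCTG and 2.92% the MEF2 site, and 30.1% held at least 1 of them. By window, at least 1 was present in 5 of 12 of the 7 lower enzymes, in 2 of 5 of the other 3, and in 1 of 13 of the 9 partner genes (Ckb, whose MEF2 site overlaps its TATAAA box). These are matches of letters, not measured binding.

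For none of the 10 enzymes did a difference between treatments pass the test. Across the 5 treatments together, 0 of the 11 rows had an adjusted p under 0.05 (edgeR's quasi-likelihood test with Benjamini-Hochberg adjustment over 14605 genes), against 0% of all genes tested, and 0 rows had an unadjusted p under 0.05, where 2.25% of all genes did. Of the 9 comparisons between treatments, each called 0 of 11 rows, again against 0% of all genes, and DESeq2's Wald test called 0 rows as well. An unadjusted p under 0.05 was reached by 1 row in each of 3 comparisons, given below, and by 0 rows in the other 6, where the share of all genes was 2.77% (13-3B5 over control), 2.39% (13-3B5 over agrin), 3.83% (agrin + 13-3B5xb12 over agrin), 3.33% (agrin + 11-3F6xb12 over agrin), 3.25% (agrin + 11-3F6xb12 over control) and 4.22% (agrin + 11-3F6xb12 over agrin + 13-3B5xb12). Log2 fold changes of the 10 enzymes ran from -0.28 for Hk2, in 13-3B5 over agrin + 13-3B5xb12, to 0.26 for Pgam2, in agrin + 11-3F6xb12 over agrin + 13-3B5xb12. For Ckm, agrin over control gave -0.05 with an SE of 0.31, and for Pfkm -0.07 with an SE of 0.27. This model has no term for the replicate number, and with the number as a block the values were -0.05 (SE 0.10) and -0.04 (SE 0.07), neither of them called. Several of these comparisons share libraries and are not independent of one another.

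Gapdh had the smallest p-value among the rows in 4 of the 9 comparisons. It measured 365, 524, 369 and 399.8 CPM in control replicates 1 to 4, 353, 337, 388 and 375 CPM with agrin, and 339, 341, 381 and 361 CPM with agrin + 13-3B5xb12. With 13-3B5 it measured 368, 352, 405 and 389 CPM, and with agrin + 11-3F6xb12 389.9, 420.3, 366 and 404 CPM. Control replicate 2 was the highest of all 20 libraries, and the other control values lay within the range of the treated ones. The log2 fold change was -0.19 (SE 0.09) for agrin over control, with an unadjusted p of 0.0401 and an edgeR adjusted p of 1, where 2.85% of all genes had an unadjusted p under 0.05. For agrin + 13-3B5xb12 over control it was -0.22 (SE 0.09), with an unadjusted p of 0.0184 and an edgeR adjusted p of 1, where 2.39% of all genes passed that mark. Without control replicate 2 these values were -0.06 and -0.09. For the monovalent antibodies, agrin + 11-3F6xb12 gave 0.12 (SE 0.09) over agrin and 0.15 (SE 0.09) over agrin + 13-3B5xb12, with edgeR adjusted p-values of 1 and 0.992.

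Hk2 had the smallest p-value between agrin + 13-3B5xb12 and agrin. Its 4 libraries measured 88.6, 73.5, 56.3 and 50.6 CPM with agrin + 13-3B5xb12 and 70.3, 63.3, 34.5 and 61.4 CPM with agrin. These ranges overlap, and the log2 fold change of 0.23 (SE 0.21) had an edgeR adjusted p of 0.999. With the replicate number as a block the value was 0.24 (SE 0.12, edgeR unadjusted p = 0.0467). In that fit Hk2 also fell under 0.05 in agrin over control (-0.25, 0.0417), 13-3B5 over control (-0.285, 0.0218) and 13-3B5 over agrin + 13-3B5xb12 (-0.28, 0.0244). In the same order 5.02%, 3.98%, 3.96% and 5.55% of all genes did, and Hk2 was called in none of them. Agrin replicate 3, the library with the liver markers, held the lowest Hk2 level of all.

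In the other 4 comparisons the smallest p-value fell to the second Aldoa identifier. Its largest difference was a log2 fold change of -2.16 (SE 1.05) between 13-3B5 and agrin + 13-3B5xb12, with an unadjusted p of 0.0485 and an edgeR adjusted p of 0.971, where 4.33% of all genes had an unadjusted p under 0.05. With 0, 3, 5 and 5 counts against 0, 21, 34 and 2 counts in replicates 1 to 4, several libraries of this row were at or near the floor of 3 counts, and the first Aldoa row differed by a log2 fold change of 0.03.

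**Figure D1:**
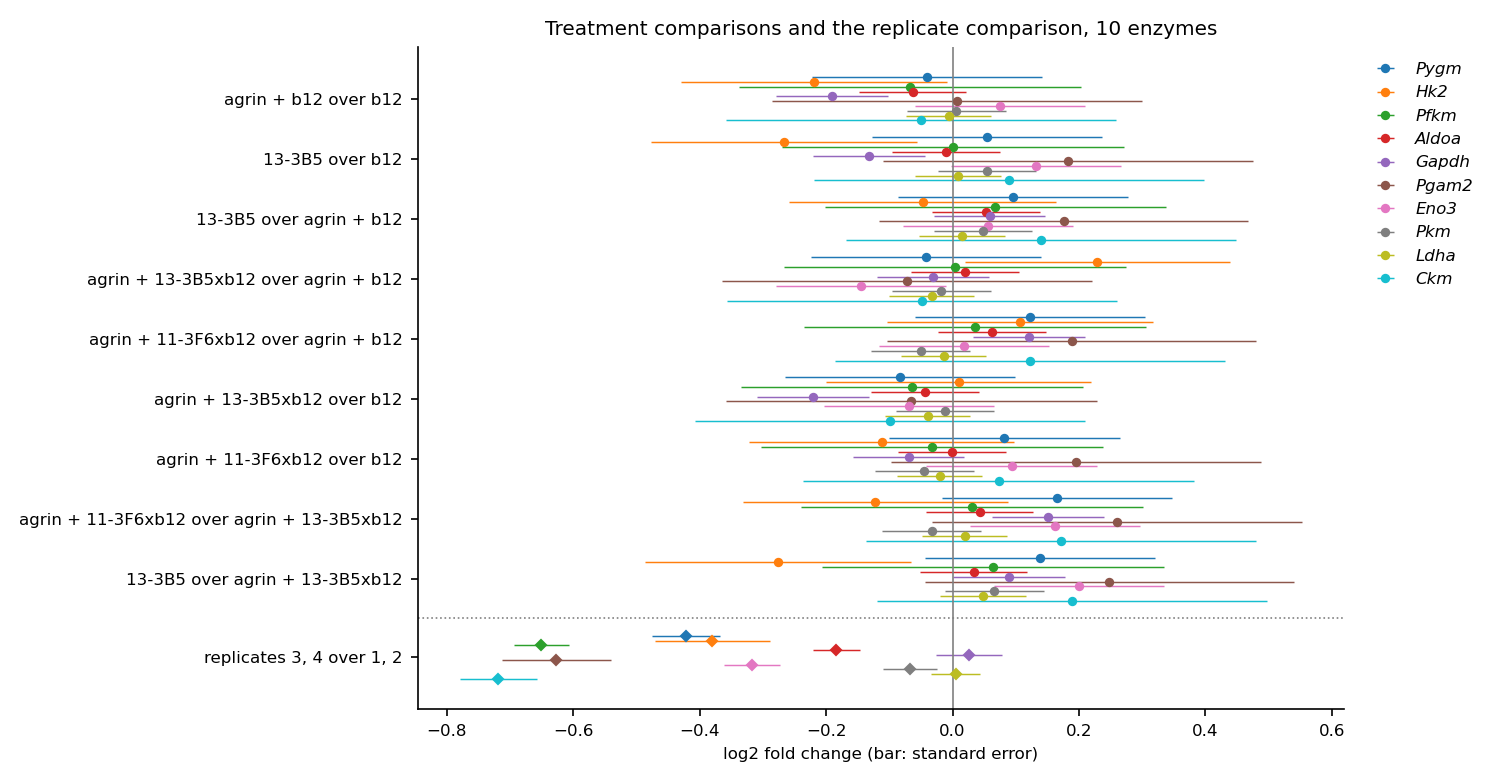
Log2 fold changes of the 10 enzymes (points, bars are standard errors) in the 9 treatment comparisons, and below the dotted line (diamonds) for replicates 3 and 4 over replicates 1 and 2. Treatment differences lie between -0.28 and 0.26, whereas Ckm, Pfkm and Pgam2 lie below -0.6 in the replicate comparison.

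The enzymes did differ between libraries with different replicate numbers. In replicates 3 and 4 of all treatments, 7 of the 11 rows were lower than in replicates 1 and 2 and 0 were higher (edgeR, treatment in the model, adjusted p under 0.05), where 13.1% of all genes were called, 7.13% of all genes as lower and 5.93% as higher. The 7 were Ckm, Pfkm, Pgam2, Pygm, Hk2, Eno3 and Aldoa, and the rows not called were Pkm, Ldha, Gapdh and the second Aldoa identifier. The median log2 fold change of the 11 rows was -0.38, and that of all genes 0.0064. The labels do not say what libraries of a number share, and the contrast between replicates 1 and 2 and replicates 3 and 4 was recognised from the first principal component of these data, so the p-values are no independent support for it. In bulk RNA, fewer cells of a type and less RNA per cell cannot be told apart.

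Replicate numbers also went with other features of the libraries. Mitochondrially encoded transcripts took 30.2 to 39.1% of counts in replicates 1 and 2 and 27.9 to 32.5% in replicates 3 and 4. Most of this was mt-Rnr2, a mitochondrial ribosomal RNA, with 27.3 to 35.9% and 25.4 to 29.8% of counts. These shares are therefore no measure of mitochondrial messenger RNA. With all mitochondrially encoded transcripts removed before scaling, the same 7 enzymes were called. The 9 myotube markers summed to 10590 to 12570 CPM in replicates 1 and 2 and 8429 to 11550 CPM in replicates 3 and 4. Among them Mb, myoglobin (log2 fold change -0.77, SE 0.07, edgeR adjusted p = 9.09e-08), and Tnnt3, fast troponin T (-0.43, SE 0.05, 7.45e-09), were lower, the fusion peptide gene Mymx was higher (0.38, SE 0.08, 0.00157), and 6 were not called. Of the 5 fibroblast markers 3 were lower (Col1a1, Lum and Col3a1) and 0 higher, with sums of 4477 to 4959 against 3875 to 4733 CPM. Of 7 markers of dividing myoblasts 1 was lower (Ccnb1) and 0 higher, with sums of 137 to 213.9 against 120.6 to 217.5 CPM. The part of these features in the enzyme differences was not tested.

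Pygm (ENSMUSG00000032648, chr19:6384399-6398459 in GRCm38, + strand) releases glucose units from glycogen. It ranged over 59.8 to 79.2 CPM (median 72.7) in replicates 1 and 2 and over 44.5 to 60.4 CPM (median 53.6) in replicates 3 and 4. Within each of the 5 treatments replicates 3 and 4 were both below replicates 1 and 2, and 8 of the 10 libraries numbered 3 or 4 lay below every library of replicates 1 and 2. Its log2 fold change was -0.42 (SE 0.05, edgeR adjusted p = 3.85e-07), a level 0.747 times that of replicates 1 and 2.

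Hk2 (ENSMUSG00000000628, chr6:82725025-82774454, - strand) adds the phosphate that keeps glucose in the cell. Its level was 61.1 to 88.6 CPM (median 68.0) in replicates 1 and 2 and 34.5 to 69.0 CPM (median 54.8) in replicates 3 and 4, and the ranges overlapped in 1 of the 5 treatments. Its log2 fold change was -0.38 (SE 0.09, edgeR adjusted p = 0.00751). This call was lost without all libraries numbered 2, where the value was -0.41 (adjusted p = 0.108), and without those numbered 3, where it was -0.24 (adjusted p = 0.0672). Without agrin replicate 3 it was -0.32 (adjusted p = 0.000973).

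Pfkm (ENSMUSG00000033065, chr15:98092589-98132451, + strand) encodes the enzyme of the committed step of glycolysis. Control replicates 1 to 4 measured 387, 371, 196 and 226 CPM, and those with 13-3B5 343, 365, 238 and 234 CPM. With agrin they measured 318, 363, 232 and 214 CPM, with agrin + 13-3B5xb12 358, 328, 205 and 239 CPM, and with agrin + 11-3F6xb12 343, 350.3, 240.5 and 221 CPM. All 10 libraries of replicates 3 and 4 lay below all 10 of replicates 1 and 2, a separation found in 1.14% of all genes tested in this direction and in 0.541% in the other. Means were 353 ± 20.6 CPM and 225 ± 15.5 CPM (SD, n = 10 each), and the log2 fold change was -0.65 (SE 0.04, edgeR adjusted p = 1.4e-13).

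Aldoa (ENSMUSG00000030695, chr7:126795234-126800751, - strand), which splits fructose bisphosphate, differed by less. It ranged over 823 to 970.2 CPM (median 884) in replicates 1 and 2 and over 737 to 835 CPM (median 793) in replicates 3 and 4, with overlap in 1 treatment. The log2 fold change of -0.18 (SE 0.04, edgeR adjusted p = 0.000417) was -0.14 and lost its call (adjusted p = 0.0771) without the libraries numbered 3.

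Gapdh (ENSMUSG00000057666, chr6:125161715-125166467, - strand) catalyses the step that makes NADH, and is often used as a reference gene. It measured 337 to 524 CPM (median 359) in replicates 1 and 2 and 361 to 405 CPM (median 385) in replicates 3 and 4, and in 3 of the 5 treatments replicates 3 and 4 were both above replicates 1 and 2. The log2 fold change was 0.03 (SE 0.05, 95% interval -0.09 to 0.14, edgeR adjusted p = 0.839). It has near-identical copies in the mouse genome, and how reads shared with them were counted is not given in the sources used here.

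Pgam2 (ENSMUSG00000020475, chr11:5801640-5803733, - strand) moves the phosphate within phosphoglycerate. Levels were 23.2 to 43.0 CPM (median 35.2) in replicates 1 and 2 and 16.4 to 30.4 CPM (median 23.3) in replicates 3 and 4. The lowest library of replicates 1 and 2, agrin + 13-3B5xb12 replicate 2, was the only one of those 10 inside the range of replicates 3 and 4, and the other 4 treatments did not overlap. On the log2 scale the difference was -0.63 (SE 0.09, edgeR adjusted p = 3.22e-06).

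Eno3 (ENSMUSG00000060600, chr11:70657202-70662513, + strand) forms phosphoenolpyruvate. Its level was 935 to 1236 CPM (median 1139.6) in replicates 1 and 2 and 801 to 995 CPM (median 901) in replicates 3 and 4. In all 5 treatments replicates 3 and 4 were below replicates 1 and 2, although across treatments 13-3B5 replicate 3, the highest of the former, exceeded the lowest of the latter, agrin + 13-3B5xb12 replicate 1. On the log2 scale the difference was -0.32 (SE 0.04, edgeR adjusted p = 1.77e-06).

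Pkm (ENSMUSG00000032294, chr9:59656368-59679375, + strand) makes pyruvate, and its gene gives 2 splice forms that a gene count cannot separate. It ranged over 1116 to 1453 CPM (median 1358) in replicates 1 and 2 and over 1174 to 1362 CPM (median 1279) in replicates 3 and 4. These ranges overlapped in 4 of 5 treatments, and the log2 fold change was -0.07 (SE 0.04, 95% interval -0.16 to 0.02, edgeR adjusted p = 0.358). The lowest library of all was control replicate 2, and without it the value was -0.10 and was called (adjusted p = 0.0405), which made 8 lower rows in place of 7.

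Ldha (ENSMUSG00000063229, chr7:46841475-46855627, + strand) turns pyruvate into lactate and varied least of the 10 genes, with a coefficient of variation of 4.75% over 20 libraries. Its level was 386 to 446 CPM (median 423) in replicates 1 and 2 and 387 to 458 CPM (median 425) in replicates 3 and 4, nearly the same range. The 95% interval of the log2 fold change was -0.08 to 0.09 (edgeR adjusted p = 0.964).

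Ckm (ENSMUSG00000030399, chr7:19404776-19422841, + strand), the cytosolic creatine kinase of muscle, had the largest difference of the 10 enzymes. Control replicates 1 to 4 measured 455, 321, 196 and 281 CPM and those with 13-3B5 401, 427, 265 and 241 CPM. With agrin they measured 342, 415, 235 and 217 CPM, with agrin + 13-3B5xb12 363, 360.2, 206 and 241 CPM, and with agrin + 11-3F6xb12 422, 403, 255 and 237 CPM. As for Pfkm, every library of replicates 3 and 4 was below every library of replicates 1 and 2. Means were 391 ± 42.5 CPM and 238 ± 26.0 CPM (SD, n = 10 each), and the log2 fold change was -0.72 (SE 0.06, edgeR adjusted p = 6.26e-09), a level 0.608 times as high.

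**Figure D2:**
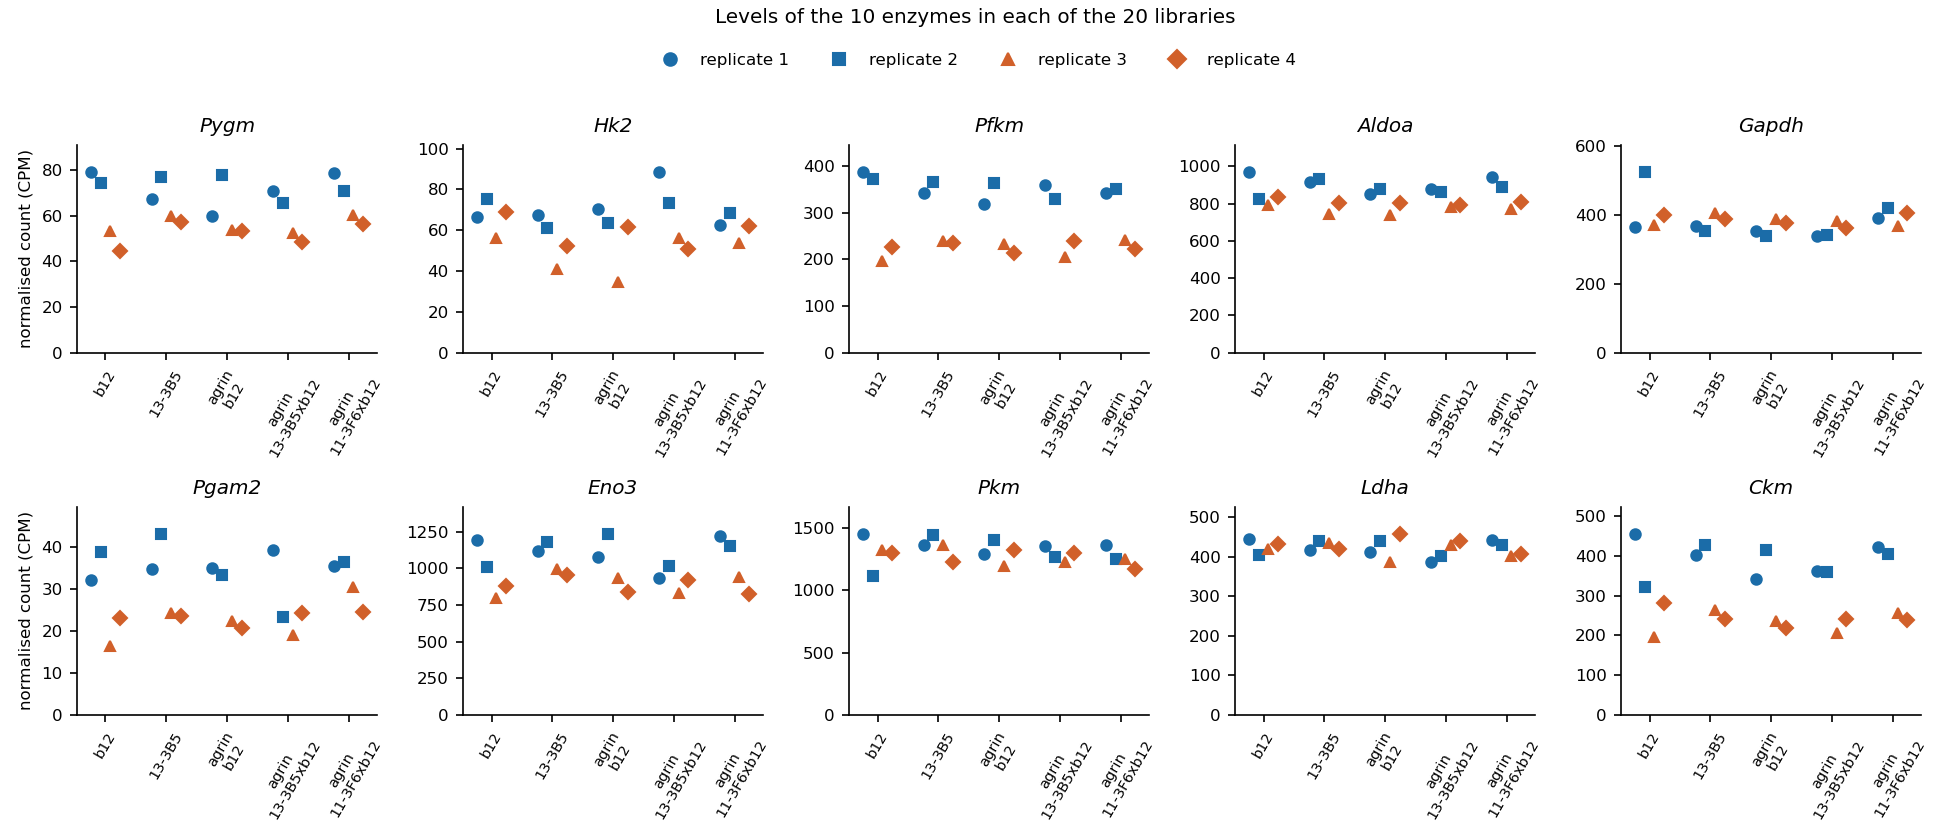
Normalised count (CPM, linear axis from 0) of each of the 10 enzymes in every library, by treatment, with blue symbols for replicates 1 and 2 and orange symbols for replicates 3 and 4. Orange symbols lie below all blue ones for Ckm and Pfkm, and the colours mix for Gapdh, Pkm and Ldha.

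The replicate difference itself was not found to depend on treatment. A test of treatment by replicate pair called 0 of 11 rows (edgeR; 0 also with DESeq2's likelihood ratio test), where 0.00685% of all genes were called, and 0 rows had an unadjusted p under 0.05, where 4.85% of all genes did. The ratio of Ckm in replicates 3 and 4 to replicates 1 and 2 was 0.597 to 0.619 across the 5 treatments. For Pfkm it was 0.556 in the control and 0.646 to 0.668 in the others. Gapdh had the smallest p-value (0.0843, edgeR adjusted p = 0.966), with a ratio of 0.865 in the control, 0.950 with agrin + 11-3F6xb12, and 1.09 to 1.11 in the other treatments. Without control replicate 1, where the control arm rests on replicate 2 alone for replicates 1 and 2, Gapdh was called. With 2 libraries per treatment and replicate pair, 10 residual degrees of freedom were left.

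Partner forms of the same steps were counted apart. Of 9 partner genes, 3 were higher in replicates 3 and 4, 1 was lower and 5 were not called. Eno1, the ubiquitous enolase, was higher in all 10 libraries of replicates 3 and 4 than in all 10 of replicates 1 and 2, with 217 to 259 CPM (median 235) against 263 to 309 CPM (median 292) (log2 fold change 0.29, SE 0.04, edgeR adjusted p = 1.16e-06). Pfkl, the liver-type phosphofructokinase, rose by 0.31 (SE 0.04, adjusted p = 5.06e-07) and Pgam1, the brain-type mutase, by 0.24 (SE 0.05, adjusted p = 0.00049) on the log2 scale, each in 5 of 5 treatments. Ckb, the brain-type creatine kinase, had 0.17 (SE 0.06) with an adjusted p of 0.0522. Eno1 and Pgam1, like Gapdh, have near-identical copies elsewhere in the genome. Not called were Pfkp (-0.01, SE 0.04), Hk1 (0.00, SE 0.06), Pygb (-0.08, SE 0.05) and Aldoc (0.44, SE 0.38), the last at under 2 CPM in every library. Ldhb, the subunit that favours lactate use, went the other way, with a value of -0.71 (SE 0.14, edgeR adjusted p = 0.000417) and 4.57 to 8.78 CPM (median 5.78) against 2.02 to 5.46 CPM (median 3.8).

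**Figure D3:**
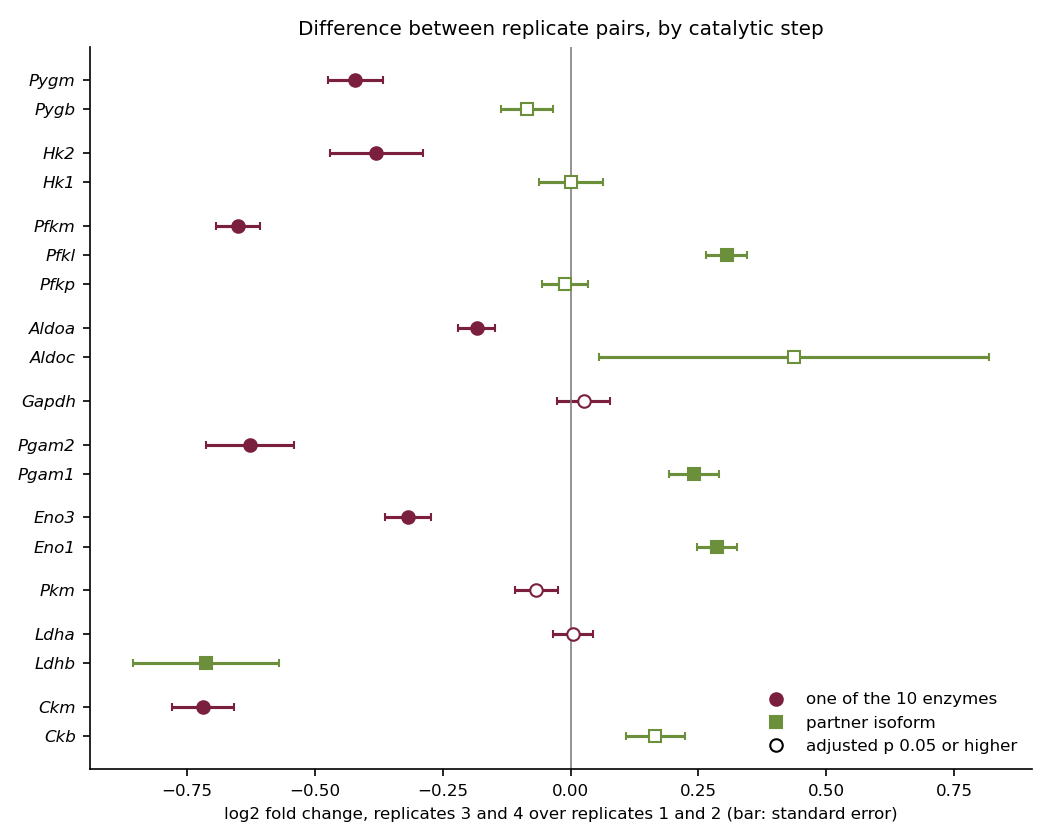
Log2 fold change of replicates 3 and 4 over replicates 1 and 2 (bars are standard errors) for the 10 enzymes (circles) and partner forms (squares), in the order of the pathway, with open symbols where the adjusted p was 0.05 or higher. Pfkm, Pgam2 and Eno3 lie left of 0 with Pfkl, Pgam1 and Eno1 right of it.

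Ratios of muscle to partner form within a library do not depend on how libraries are scaled, and are given as a description. The log2 ratio of Ckm to Ckb, each per kilobase, was 1.95 ± 0.16 in replicates 1 and 2 and 1.07 ± 0.19 in replicates 3 and 4 (SD, n = 10 each), and the 2 sets of libraries did not overlap. For Pfkm to Pfkl it was 2.31 ± 0.12 and 1.36 ± 0.14, and for Eno3 to Eno1 2.61 ± 0.19 and 2.00 ± 0.19, also without overlap. Pgam2 to Pgam1 went from 0.71 ± 0.25 to -0.16 ± 0.30, but here the libraries overlapped. Per kilobase of the longest coding transcript, Pgam1 was the higher of both on average in replicates 3 and 4. Over all annotated exons the order turned, with 27.2 CPM per kilobase for Pgam2 and 26.9 for Pgam1 in these replicates. Pygm to Pygb gave 0.91 ± 0.08 and 0.57 ± 0.19, and Hk2 to Hk1 0.17 ± 0.12 and -0.22 ± 0.31. Ldha to Ldhb was the exception with 5.62 ± 0.28 and 6.36 ± 0.41, with Ldhb lower and Ldha not called. In every library Ckm, Pfkm and Eno3 exceeded their partners per kilobase.

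**Figure D4:**
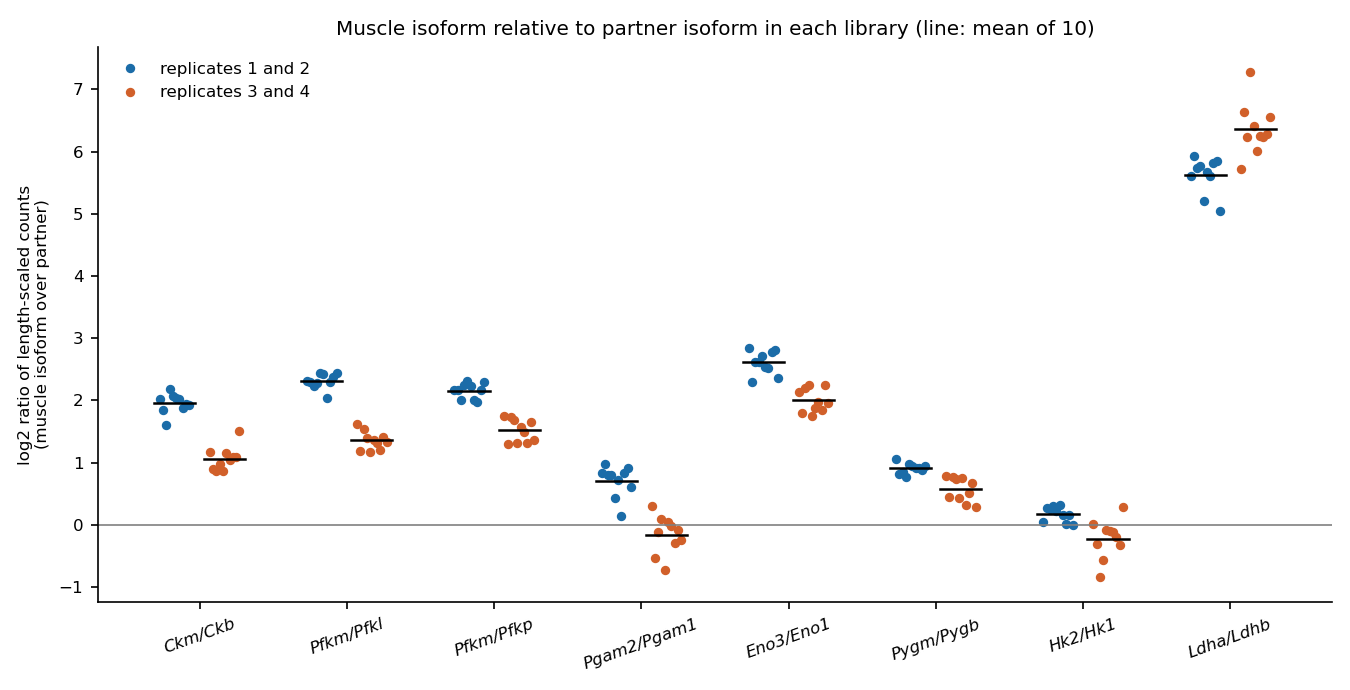
Log2 ratio of the muscle form to its partner form, per kilobase, in each library (points) with the mean of 10 libraries (line), for replicates 1 and 2 in blue and 3 and 4 in orange. The colours are separate for Ckm/Ckb, both Pfkm ratios and Eno3/Eno1, and Ldha/Ldhb is the ratio that is higher in replicates 3 and 4.

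Other genes of glucose and phosphagen metabolism were summarised by function. Of 71 such genes, partner forms included, 65 were tested, of which 16 were lower in replicates 3 and 4, 8 were higher and 41 were not called, with a median log2 fold change of -0.08. In the comparisons between treatments, 0 genes of these lists were called.

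For the remaining glycolytic steps, 0 of 4 genes tested (Gpi1, Tpi1, Pgk1 and Eno2) were called in either direction. Of 5 transport genes, Slc2a4, the insulin-responsive glucose carrier GLUT4, was lower by a log2 value of -0.84 (SE 0.18, edgeR adjusted p = 0.00107). The lactate carrier gene Slc16a1 was higher by 0.53 (SE 0.04, edgeR adjusted p = 7.72e-12), with 202 to 266 CPM (median 229) against 264 to 363 CPM (median 339.6), and Slc2a1, the basal glucose carrier GLUT1, by 0.22 (SE 0.07, adjusted p = 0.0229). The call of Slc2a4 was lost without the libraries numbered 3 (-0.64, adjusted p = 0.0597), and that of Slc2a1 in 8 of 24 fits that left out a library or a replicate number.

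Glycogen genes were lower where they were called, 5 of 12 with 0 higher. Ppp1r3a, the muscle subunit that brings protein phosphatase to glycogen, had 13.6 to 17.9 CPM (median 16.1) in replicates 1 and 2 and 5.85 to 10.9 CPM (median 8.78) in replicates 3 and 4, with no overlap (log2 fold change -0.90, SE 0.09, edgeR adjusted p = 2.07e-09). Gyg, the primer protein glycogenin, had -0.38 (SE 0.07, adjusted p = 8.7e-05) and Phkb, a subunit of the kinase that activates Pygm, -0.30 (SE 0.05, adjusted p = 5.38e-05). The glycogen synthase gene Gys1 was not called (-0.10, SE 0.07).

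Of 7 phosphagen and nucleotide genes, 2 were lower, 1 was higher and 4 were not called. Ckmt2, the mitochondrial creatine kinase of muscle, went from 1.29 to 4.41 CPM (median 3.18) to 0.46 to 1.53 CPM (median 1.12) (log2 fold change -1.55, SE 0.24, edgeR adjusted p = 9.43e-06). Ampd1, the muscle AMP deaminase, went from 2.35 to 7.29 CPM (median 4.88) to 0.97 to 2.97 CPM (median 1.73) (-1.44, SE 0.18, adjusted p = 2.78e-07). Gatm, the first enzyme of creatine synthesis, was higher by 0.34 (SE 0.04, adjusted p = 2.42e-07). The creatine carrier gene Slc6a8 was not called (-0.14, SE 0.07).

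Among 9 genes of glycolytic control, 3 were lower and 0 higher: Pdk4 (-0.31, SE 0.08, edgeR adjusted p = 0.00892) and Pdk1 (-0.13, SE 0.05, 0.0495), kinases that inhibit pyruvate dehydrogenase, and Pdha1, a subunit of that complex (-0.12, SE 0.04, 0.0268). The call of Pdk1 was lost in 18 of 24 fits that left libraries out, that of Pdha1 in 10, and that of Pdk4 in 2 (without number 1 or number 4). Of 11 regulators, Ppargc1a, a coactivator of mitochondrial and oxidative genes, was lower (-1.93, SE 0.37, adjusted p = 0.000247), at under 3.1 CPM throughout, as was Mef2c (-0.40, SE 0.05, 1.06e-07), while Hif1a was higher (0.13, SE 0.04, 0.0369) and 8 were not called. The 8 targets of hypoxia-inducible factor did not move together: Car9 (-2.51, SE 0.45, adjusted p = 0.000102, at most 2.32 CPM and at 0 in 2 libraries of replicates 3 and 4) and Egln3 (-0.36, SE 0.05, 8.32e-07) were lower, P4ha1 was higher (0.11, SE 0.04, 0.0295) and 5 were not called. The call of Hif1a was lost in 14 of 24 such fits and that of P4ha1 in 10.

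**Figure D5:**
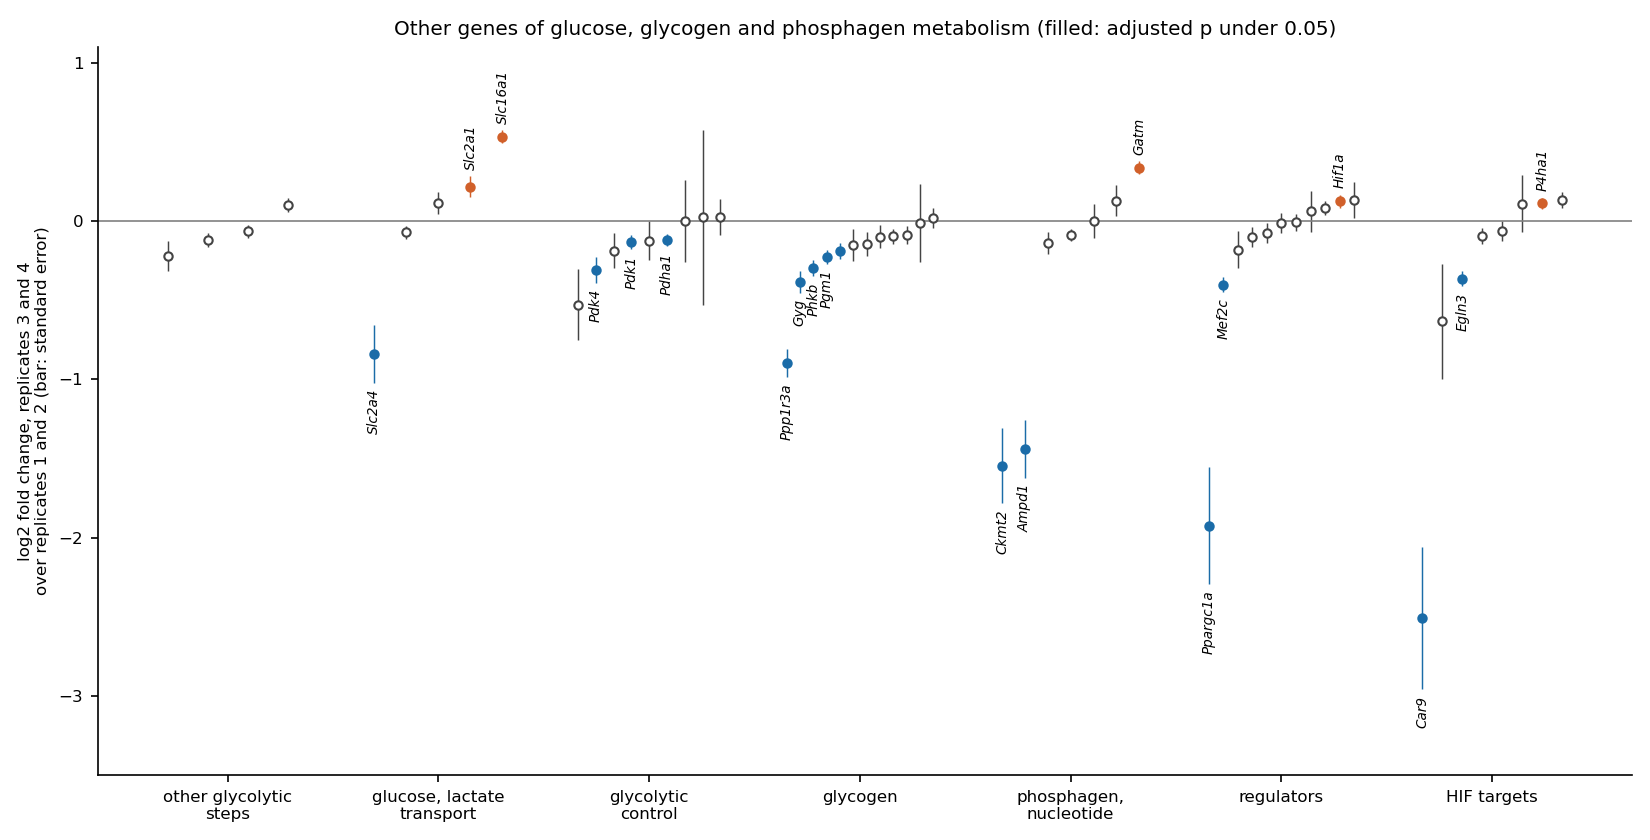
Log2 fold change of replicates 3 and 4 over replicates 1 and 2 (bars are standard errors) for each tested gene of 7 lists, with filled blue or orange symbols for genes lower or higher at an adjusted p under 0.05. The other glycolytic steps have no filled symbol, and the filled glycogen genes all lie below 0.

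The 10 enzymes did not vary as a single group. Across the 20 libraries, after removal of treatment means, the correlation of log2 CPM with the mean standardised level of all 10 was 0.954 for Ckm, 0.943 for Pfkm, 0.909 for Eno3 and 0.908 for Aldoa, and it was 0.545 for Pkm, 0.273 for Ldha and -0.177 for Gapdh. That mean includes the gene itself, which raises each value, and differences between the replicate pairs were not removed. The pair with the closest relation, Ckm and Pfkm (r = 0.959), had r = 0.430 within replicates 1 and 2 and 0.731 within replicates 3 and 4, lower than over all libraries in both. Hk2 and Eno3, both lower in replicates 3 and 4, had r = -0.822 and -0.570 within the pairs. All these points share libraries and their scaling, and no test is attached to them.

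Outside the lists, genes whose level was among the most like the mean of the 10 enzymes, of 11063 candidates, were Tnnt1 (r = 0.968), slow troponin T, Coq8a (0.964), a kinase-like protein of coenzyme Q synthesis, and Apobec2 (0.961), a muscle member of the deaminase family. Within replicates 1 and 2 their correlations were 0.561 to 0.704 and within replicates 3 and 4 0.708 to 0.834. The log2 fold changes of these 3 genes between the replicate pairs were -0.68 for Tnnt1, -0.83 for Coq8a and -0.77 for Apobec2. The correlation that picked them includes the difference between the pairs, so these values are no independent support for it.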

How the data were processed

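Per the labels' protocols, the miRNAeasy Mini Kit was used for extraction and a TruSeq Stranded Total RNA kit (Ribo-Zero) for libraries, with NovaSeq paired-end sequencing of 150 bases. The submitters' processing notes name Trim Galore 0.6.6, cutadapt 2.10, STAR 2.7.6a, HTSeq 0.12.4, DESeq2 1.32.0 and GRCm38, without saying which made the table. The deposited table holds whole-number counts per gene and library, not normalized. Whether counting used strand, and how reads of near-identical genes were treated, is not given in the sources used here.

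Counts were analysed with edgeR 4.0.16 in R 4.3.3. Genes passing filterByExpr (minimum count 10, minimum total 15) were kept, libraries were scaled by TMM, and robust quasi-likelihood models were fitted to all 20 libraries, with treatment alone for the treatment comparisons (15 residual degrees of freedom) and with a term for replicates 3 and 4 against 1 and 2 for the replicate comparison (14). P-values are two-sided, from the quasi-likelihood F-test, and Benjamini-Hochberg adjusted over 14605 genes, threshold 0.05. Standard errors are the log2 fold change over the square root of F. Log2 CPM used a prior count of 2. Levels at or under 3 counts (0.129 to 0.163 CPM) were taken as not detectable. For that floor and the counts themselves, counting error is the least error to be assumed, since PCR copies are not independent molecules. Transcript lengths and positions are from GENCODE M21, promoter windows from RefSeq. No pair of libraries of a treatment agreed within sampling noise (smallest chi-square per gene 5.17), so each was counted once. Models were tested on simulated counts with 100 genes changed 1.5-fold and 100 changed 1.2-fold. For agrin over control 97% and 27% of these were recovered, with 2 false calls. For the replicate comparison it was 98% and 73%, with 18 false calls. The counts simulated for agrin over control held no difference between replicate pairs, unlike the data.

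The members and the gene lists were chosen with earlier results of these data known. The rule named all 10 enzymes, the enzyme with the smallest p-value in each treatment comparison, the partner forms, up to 3 called genes with the largest change of each other list, and the 5 genes most like the enzymes, of which 2 are not reported here; Slc6a8, Gys1, the 4 remaining glycolytic steps and the marker genes were named after their values were seen. Alternatives were DESeq2 1.42.0, DESeq2 or upper-quartile scaling, other filters, removal of mitochondrially encoded genes, the replicate number as a block, fits of only the groups compared, no treatment term, and leaving out libraries.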

Additional observations from a re-analysis of the deposited data

How the results depend on the processing

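The count of 7 lower enzymes was found with DESeq2 size factors, upper-quartile scaling, either other filter, mitochondrial genes removed, DESeq2's Wald test, no treatment term and limma 3.58.1 with the replicate number as a random block, and the 7 were the same genes in each. It was 8, with Pkm added, without agrin + 13-3B5xb12 replicate 1 and control replicate 2. Leaving out a library or a replicate number gave 5 to 8. In the random-block fit the correlation within a replicate number was -0.0539, and 2680 of all genes were called against 1908 in the main fit. With a negative correlation and more calls, the random-block fit is no stricter test of the replicate comparison. Treatment comparisons called 0 enzymes under every setting run, and treatment by replicate pair 0 to 1 when libraries were left out. Over the scalings, the median log2 fold change of all genes stayed between -0.0045 and 0.0064, and 54.6 to 59.5% of called genes were lower.

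Small differences changed sign. Hk1 became -0.0004 with DESeq2 size factors and with the Wald test, -0.0105 with upper-quartile scaling, -0.0005 with the random block and -0.0028 without the treatment term. Ldha became -0.0061 with upper-quartile scaling and -0.0214 without both libraries named above. With libraries left out, the log2 fold change ranged over -0.0298 to 0.0828 for Gapdh, -0.0244 to 0.0334 for Ldha, -0.0264 to 0.0459 for Hk1, -0.0677 to 0.0437 for Pfkp and -1.1327 to 0.1173 for the second Aldoa identifier, and the Hk2 to Hk1 ratio difference over -0.5275 to -0.2611. Ckb was called with no filter (edgeR adjusted p = 0.0444) and with the random block (limma, 0.0216). Calls of Hif1a, Pdk1, Pdha1 and P4ha1, all close to the threshold, were lost under at least 1 other setting. The cause was not tested.

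With the replicate number as a fixed block, 0 enzymes were called in the joint test and in each of the 9 comparisons, and calls over all genes went from 0 to at most 5 (0.0342%). Of the unadjusted values, Eno3 in 13-3B5 over agrin + 13-3B5xb12 was lowest (log2 fold change 0.20, unadjusted 0.0122, edgeR adjusted p = 0.835). Deviations of same-numbered libraries of different treatments correlated at 0.195 on average (0.008 to 0.384), those of other numbers within the same replicate pair at 0.201, and those across the pairs at -0.198. Every library correlated best with its own pair, 11 of 20 with their own number, and in 4 of the 9 comparisons every same-numbered pair was over 0.1, so the numbers were not taken to pair libraries beyond that. The replicate pairs were recognised from the first principal component of these data, so these correlations are no independent support for them. Counts of the second Aldoa identifier, Car9 and Ppargc1a are few, which limits those values.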
